A study of Homo sapiens with 10 samples.

Results

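Potential G-quadruplex sites, abbreviated as potential G4 sites, were examined in a pooled map of nucleosome positions from human induced pluripotent stem cells (hiPSCs). A site was any non-overlapping match on the autosomes of GRCh38 to 4 runs of at least 3 guanines separated by 1 to 7 bases, on either strand. The search gave 359902 sites, 180305 with the guanines on the plus strand and 179597 on the minus strand. Of the 12921589 positions in the map, 2282299 (17.7%) had a midpoint within 1000 bp of a site centre. Sites were chosen from sequence alone, without use of any nucleosome value. They were split by their distance from the nearest GENCODE transcript start. Near sites, within 1000 bp of a start, numbered 80941, and far sites, over 5000 bp away, numbered 196945. The remaining 82016 lay between these limits.

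All samples came from 1 hiPSC line, PB010.5, with a reporter of the cell cycle inserted in the EEF2 locus. Permeabilized cells were treated for 5 min with 10, 6, 3, 1 or 0.5 U of micrococcal nuclease (MNase), which cleaves linker DNA and spares the DNA wrapped in nucleosomes. There was 1 library per MNase amount, all 5 with added yeast nucleosomal DNA, and paired-end runs with reads of 150 bp and of 50 bp for each gave 10 samples. The map is a single list of 140-bp intervals called on pooled libraries, with a score for each. It has no value for a single MNase amount and no replicates, so no p-value is given, and the reads behind a position are unknown. Each SD below is over the autosomes, 22 unless stated, which are parts of 1 map of 1 cell line and not replicates. The MNase amounts could not be compared.

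A G-quadruplex is a fold of DNA in which guanines from separate runs pair in flat tetrads that stack on each other around potassium ions. The bases between the runs form loops, and quadruplexes with short loops are in general the more stable in vitro. Sequences able to fold this way are common in promoters, at telomeres and in some repeat families. Folding needs single-stranded guanines, whereas DNA in a nucleosome is double-stranded and bent around the histones. Whether nucleosomes lie on or beside such sequences is the question that the values below address. A match to the pattern shows that the letters are present, not that a quadruplex formed in these cells.

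Sites were short, with a median length of 25 bases and quartiles of 22 and 28. The same few sequences recurred at many places, and the 5 most frequent sequences of at most 30 bases are shown because their copies are described one by one further on. All sequences are from the GRCh38 reference, read 5′ to 3′ along the guanine-rich strand, and capitals mark runs of at least 3 guanines. Sequence 1, found 5937 times, occurs for example at chr1:4618357-4618378 on the minus strand. Sequence 2, found 3332 times, occurs at chr1:6305253-6305270, minus strand. Its last stretch of guanines was read as separate runs with a guanine between them, because a separating base can be of any kind. Sequence 3, found 2090 times, occurs at chr1:2268851-2268865, minus strand. Sequence 4, found 950 times, occurs at chr1:20831749-20831770, minus strand. Sequence 5, found 834 times, occurs at chr1:4214119-4214137, minus strand.
Sequence 1: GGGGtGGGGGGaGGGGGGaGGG
Sequence 2: GGGaGGGaggtGGGGGGG
Sequence 3: GGGaGGGaGGGaGGG
Sequence 4: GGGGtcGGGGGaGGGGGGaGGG
Sequence 5: GGGaGGGaGGGaGGGaGGG

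Sequences 1, 3 and 5 have only loops of a single base. Most sites, however, had a sequence of their own. Among all sites there were 290113 distinct sequences, and 274160 sites (76.2%) had a sequence found nowhere else among the sites. A further 42444 sites had a sequence found 2 to 9 times and 43298 had a sequence found 10 or more times. Sequences found 10 or more times made up 16.5% of far sites and 3.56% of near sites. This recurrence of the match itself was counted apart from recurrence of its surroundings. Over all sites, the central 100 bases occurred at a single place in the reference for 95.5%. Only exact copies were counted, so a place with a near copy elsewhere counts as single. Whether reads could be placed there was not tested. The share was lower for some recurring sequences, at 57.5%, 69.4% and 32.4% of far copies of sequences 1, 2 and 4. For sequences 3 and 5 it was 99.3% and 99.4%.

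Promoters held more than their share of sites. Near sites were 22.5% of all sites, while 7.35% of the sequenced autosomes lay that close to a transcript start. Far sites were 54.7% of all sites on 73.7% of the sequence. The average over the autosomes was 131 sites per Mb. A site lay within 1000 bp of the canonical start of 12928 of 18772 protein-coding genes (68.9%). The guanines of near sites were more often on the coding strand, the strand that carries the sequence of the RNA, with 44389 sites against 36552 on the template strand. Upstream of the start 52.3% of 39593 sites had them on the coding strand, and downstream 57.3% of 41348. Near sites were also crowded. Only 21.2% of near sites had no other site within 1000 bp, against 60.1% of far sites.

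At single sites, a called nucleosome was usually close, which was also so in sequence without a site. In the comparison windows described below, 70.3% (far) and 67.5% (near) of centres lay inside a position. At the compared sites the shares were 71.1% and 73.0%. The nearest midpoint lay at a median of 46 bp from the centre of far sites (quartiles 25 and 84 bp) and 45 bp from that of near sites (quartiles 24 and 76 bp). A midpoint fell within 50 bp of the centre at 55.7% of far and 56.5% of near sites. The score of that position, a height that is never negative and whose scaling by the authors is not stated, had a median of 18.5 at far sites (quartiles 13.6 and 24.7) and 21.0 at near sites (quartiles 14.8 and 28.4). A far site had a median of 10 positions within 1000 bp and a near site 11. No position was listed within 1000 bp of 6111 far sites and 2674 near sites. How many of these lay in blacklisted regions was not tested. The share within 50 bp and these counts were not taken in windows.

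To set these values against sequence without a site, each group was compared with windows on the same autosome, at the same kind of distance from transcript starts, with no site within 1000 bp. The windows were weighted so that the GC content of the surrounding 2000 bp and of the central 200 bp had the same distribution as at the sites. Such windows were found for 190745 far sites (96.9%) and 66986 near sites (82.8%). Over the central 200 bp the GC content was then 52.4% at far sites and 52.1% in their windows, and 62.7% and 62.5% for near sites. The match did not extend to the guanine tract itself. In the central 30 bases, far sites had an average of 17.9 bases of the more frequent of G and C, and their windows 10.0.

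Midpoints were slightly denser over sites than in these windows. Within 50 bp of the centre, far sites had 5.64 midpoints per kb and windows 5.37, a log2 ratio of 0.071 (SD 0.041, n = 22 autosomes), and sites were higher on all 22 autosomes. Near sites had 5.69 and windows 5.13 per kb, a log2 ratio of 0.15 (SD 0.066), again higher on all 22. Sites between the 2 limits had 5.74 against 5.28. The ratio ranged over far sites from 0.0051 on chromosome 4 to 0.18 on chromosome 17, and over near sites from 0.039 on chromosome 9 to 0.31 on chromosome 13. The near value was above the far value on 18 of the 22 autosomes, by 0.070 on average (SD 0.080), so the difference was within its spread.

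**Figure D1:**
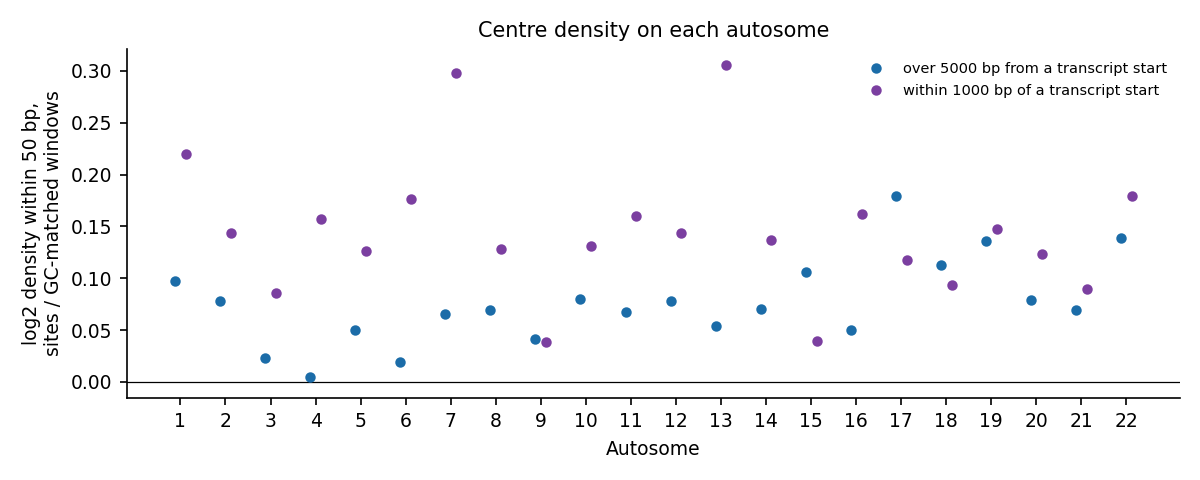
The log2 ratio of midpoint density within 50 bp of potential G4 sites to that in GC-matched windows (y) is plotted for each of the 22 autosomes (x), with 1 point for far sites and 1 for near sites. All points lie above 0, and near sites exceed far sites on 18 autosomes.

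The positions over sites also had higher scores. The mean score within 50 bp was 20.0 at far sites and 19.3 in windows, a difference of 0.708 (SD 0.422), positive on all 22 autosomes. At near sites it was 22.6 against 21.5, a difference of 1.11 (SD 0.545), negative on 2 of 22 autosomes. The share of site centres that lay inside a 140-bp position was 71.1% at far sites and 70.3% in windows, and this difference of 0.756 points was smaller than its SD of 2.19. At near sites it was 73.0% against 67.5%, a difference of 5.45 points (SD 2.70), negative on 1 autosome.

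The average hid a sharp pattern. In the smoothed profile of far sites the density had a pair of maxima, at -30 bp (5.54 per kb) and at 30 bp (5.89 per kb), where negative distances are 5′ along the guanine-rich strand. Between them, at the centre, lay a dip to 5.18 per kb, which is 0.955 times the windows. At -100 and 100 bp the density was down to 3.28 and 3.36 per kb, or 0.644 and 0.660 times the windows. Near sites had the same features with shallower troughs. Their maxima lay at -30 and 40 bp (5.80 and 5.84 per kb), with a dip to 5.22 between, and the density at -100 and 100 bp was 3.80 and 4.06 per kb, or 0.748 and 0.799 times the windows. From 80 to 120 bp on both sides together, far sites had 3.25 midpoints per kb and windows 5.10, near sites 3.86 and windows 5.11. The list never places neighbouring midpoints closer than 100 bp, and its midpoints fall on a 10-bp grid for 94.4% of positions, which limits how finely these distances can be read.

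Because of this shape, the size of the central excess depended on the width over which it was taken. Within 25 bp of the centre the log2 ratio at far sites was -0.063, below 0 on 19 of 22 autosomes, and within 75 bp it was -0.0042, below 0 on 12. At near sites the ratio was 0.0099 within 25 bp and 0.11 within 75 bp. The excess at far sites thus lay at the pair of maxima, not at the centre itself.

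Beyond the troughs, far sites had a series of further maxima. On the 3′ side these lay at 210, 390, 580, 770 and 960 bp, with 1.06, 1.12, 1.09, 1.07 and 1.05 times the density of windows, which stayed between 4.76 and 4.77 per kb at these distances. On the 5′ side maxima lay at -170, -430, -620 and -820 bp, with 1.05, 1.08, 1.05 and 1.04 times. Around near sites the next maxima lay at -160 and 160 bp, with 1.13 and 1.11 times the windows, and those at -390 and 390 bp reached 1.03 and 1.05 times. From 100 to 250 bp on both sides, far sites had 4.57 midpoints per kb and windows 4.85, a log2 ratio of -0.086 (SD 0.052), below 0 on 19 of 22 autosomes. Near sites had 5.09 and windows 4.99, a ratio of 0.028 that was smaller than its SD of 0.059.

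Scores differed from windows at some of the same distances. At far sites the mean score was 20.1 at 40 bp, where windows had 19.2, and it was lower than in windows at -110 bp, with 16.8 against 18.5. At near sites it was 22.8 at 20 bp against 21.5, and 20.2 at -110 bp against 21.1. On the 3′ side of near sites the score at 100 bp was the same as in windows, 21.2 in both, and there was no dip in the score at the centre of near sites, with 22.7 at 0 bp.

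**Figure D2:**
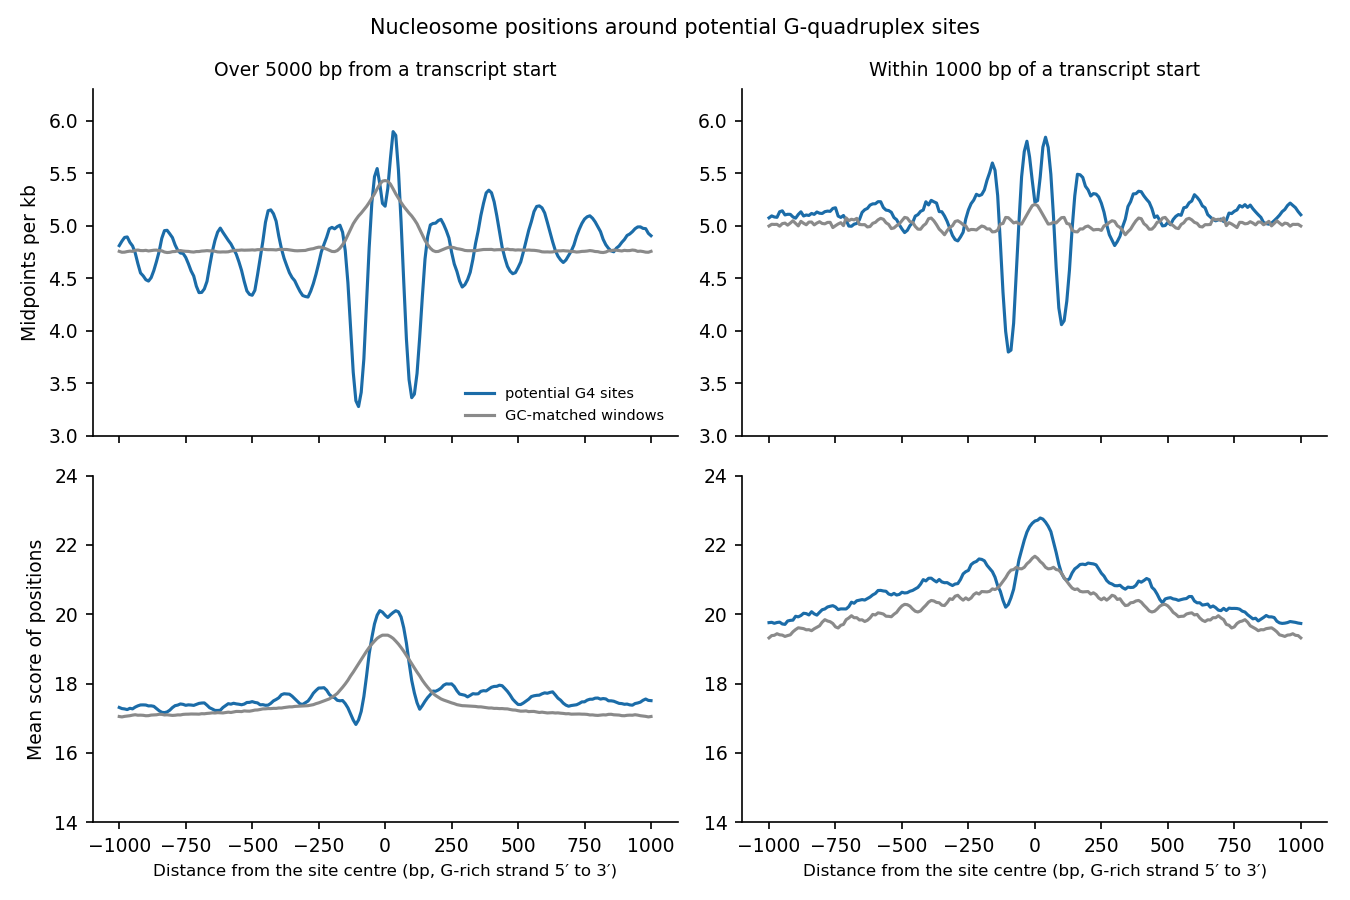
Midpoints per kb (upper row) and the mean score of positions (lower row) are plotted against distance from the centre of far (left) and near (right) sites, with sites in blue and GC-matched windows in grey, in 10-bp bins smoothed over 5 bins. Sites show a pair of central maxima, troughs near 100 bp on both sides (3.28 and 3.36 per kb at far sites) and, at far sites, further maxima up to 960 bp away. The axes do not start at 0.

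The pattern was not symmetric along the guanine-rich strand. From 50 to 250 bp the density 3′ of far sites exceeded that 5′ by a log2 ratio of 0.025 (SD 0.015), positive on all 22 autosomes. At the 117993 isolated far sites it was 0.0028 (SD 0.018) and below 0 on 11 of 22 autosomes, and at far sites with a sequence found nowhere else among the sites it was 0.011 (SD 0.022) and below 0 on 9. At near sites it was 0.029 (SD 0.029), below 0 on 2 of 22. Far sites with the guanines on the plus strand had a central log2 ratio of 0.057 (SD 0.043) and those on the minus strand 0.084 (SD 0.050), which overlap within their spread.

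Sequences just outside the pattern, with no site within 1000 bp, also had a central excess. At isolated sites the log2 ratio was 0.11 (SD 0.049) far from starts and 0.17 (SD 0.052) near them. Far from starts, 326829 stretches with 3 runs only had 6.02 midpoints per kb within 50 bp against 5.33 in their windows, a log2 ratio of 0.18 (SD 0.018, above 0 on all 22 autosomes). The 24051 far stretches with 4 runs and a loop of 8 bases had 6.15 against 5.47, a log2 ratio of 0.17 (SD 0.030, above 0 on all 22). Some places can be in both sets, since each set was only kept clear of sites. Near starts the ratios were 0.12 (SD 0.040) and 0.11 (SD 0.10). Troughs were present there too, and in far stretches the density from 80 to 120 bp was 4.21 per kb for 3 runs and 3.65 for a loop of 8, against 5.08 and 5.16 in windows. Values on either side of the limits of distance overlapped within their spread. Sites in the last 100 bp inside the limit of 1000 bp had a ratio of 0.11 (SD 0.12) and those in the first 100 bp outside it 0.16 (SD 0.089). In the 500 bp below the limit of 5000 bp the ratio was 0.090 (SD 0.13), and in the 500 bp above it 0.091 (SD 0.085).

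The comparison changed when windows were matched on the guanine tract in place of the central 200 bp. These windows had the same GC content over 2000 bp and the same number of bases of the more frequent of G and C in their central 30 bp, but no match to the pattern within 1000 bp. They were found for 186645 far and 63495 near sites, so the sites compared differ in part from those of the first match. Against these windows, far sites had 5.61 midpoints per kb and windows 5.60, a log2 ratio of 0.0017 (SD 0.096), below 0 on 10 of 22 autosomes. Near sites had 5.70 and windows 5.41, a ratio of 0.076 (SD 0.18), below 0 on 9. These windows had troughs of their own. At 100 bp from the centre their density was 3.37 per kb in far sequence, where sites had 3.37, and from 80 to 120 bp the log2 ratio of sites to windows was -0.024 for far and 0.11 for near sites. Within 150 bp of the centre of far sites the ratio stayed between 0.966 and 1.04, and of near sites between 0.986 and 1.15. Beyond 150 bp and up to 1000 bp the ratio at far sites ranged from 0.945 at -680 bp to 1.10 at 370 bp. The score difference at the centre was 0.0558 (SD 0.745) at far sites and -0.0741 (SD 1.98) at near sites. The central values therefore did not exceed these SDs once the tract was matched. Bins of this match were over all autosomes, so the windows of a single autosome were not matched to its own sites. That mismatch is part of these SDs and counts, which are not comparable with those from same-autosome bins. For the first match, bins over all autosomes gave SDs of 0.045 (far) and 0.13 (near), against 0.041 and 0.066. The stretches just outside the pattern, all with no site within 1000 bp, kept a small excess against tract-matched windows in far sequence. The sites in this match were not restricted to isolated ones, so their ratio is not for a like set. The log2 ratios were 0.056 (SD 0.021) for 3 runs and 0.063 (SD 0.047) for a loop of 8, both above 0 on all 22 autosomes. This match was chosen after the data had been seen.

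**Figure D3:**
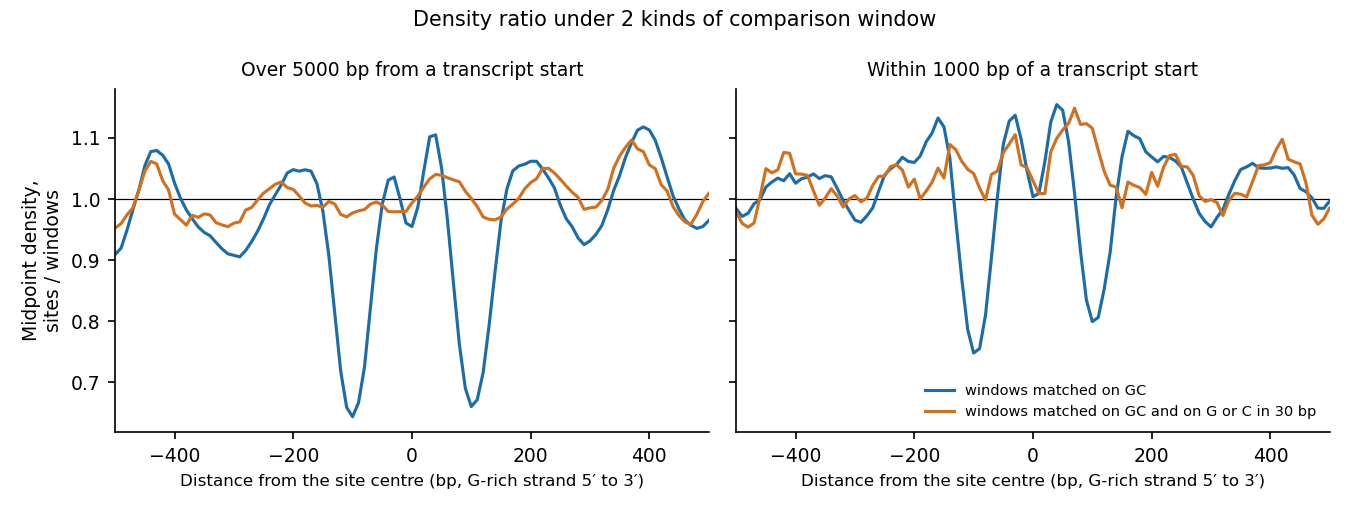
The ratio of midpoint density at sites to that in comparison windows (y) is plotted against distance from the site centre (x), for windows matched on GC content (blue) and for windows matched on GC content and on the bases of the richer of G and C in the central 30 bp (orange). At far sites the blue curve falls to 0.644 at -100 bp, while the orange curve stays between 0.966 and 1.04 within 150 bp of the centre.

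Sites differed among themselves by how often their sequence recurred. Far sites with a sequence found once had 6.39 midpoints per kb at the centre against 5.35 in windows, a log2 ratio of 0.26 (SD 0.060), above 0 on all 22 autosomes. With a sequence found 2 to 9 times the densities were 4.39 and 5.30, a log2 ratio of -0.27 (SD 0.22). With a sequence found 10 or more times they were 3.09 and 5.52, a log2 ratio of -0.84 (SD 0.11). Both of these groups were below 0 on all 22 autosomes. The share of centres inside a position was 80.5%, 55.1% and 39.1% in the 3 groups, against 70.1%, 69.4% and 72.1% in windows. At near sites both recurring groups were low as well, without the graded order of far sites, with log2 ratios of 0.24 (SD 0.077) for sequences found once, -0.63 (SD 0.39) for 2 to 9 times and -0.61 (SD 0.28) for 10 or more times. The values of the latter pair overlapped within their spread.

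Some recurring sites lie in longer sequence that is itself repeated in the reference. Restricted to sites and windows whose central 100 bases occur once in the reference, the log2 ratios at far sites were 0.20 (SD 0.027), -0.15 (SD 0.085) and -0.63 (SD 0.10) for the 3 groups, with no change of sign. Against windows matched on the guanine tract, and with the same restriction, they were 0.14 (SD 0.077), -0.21 (SD 0.12) and -0.68 (SD 0.20). Farther away the values depended on the side. At far sites with a sequence found 10 or more times, the 3′ density was 1.19 times that of windows at 390 bp and 1.13 times at 580 bp. On the 5′ side it was 0.763 times at -390 bp and 0.937 times at the maximum there, at -430 bp. From 1000 to 1500 bp on both sides together, far sites with a sequence found 10 or more times had 4.03 midpoints per kb against 4.60 in windows, and those with a sequence found once had 5.10 against 4.81. The part of mapping in this difference was not tested.

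**Figure D4:**
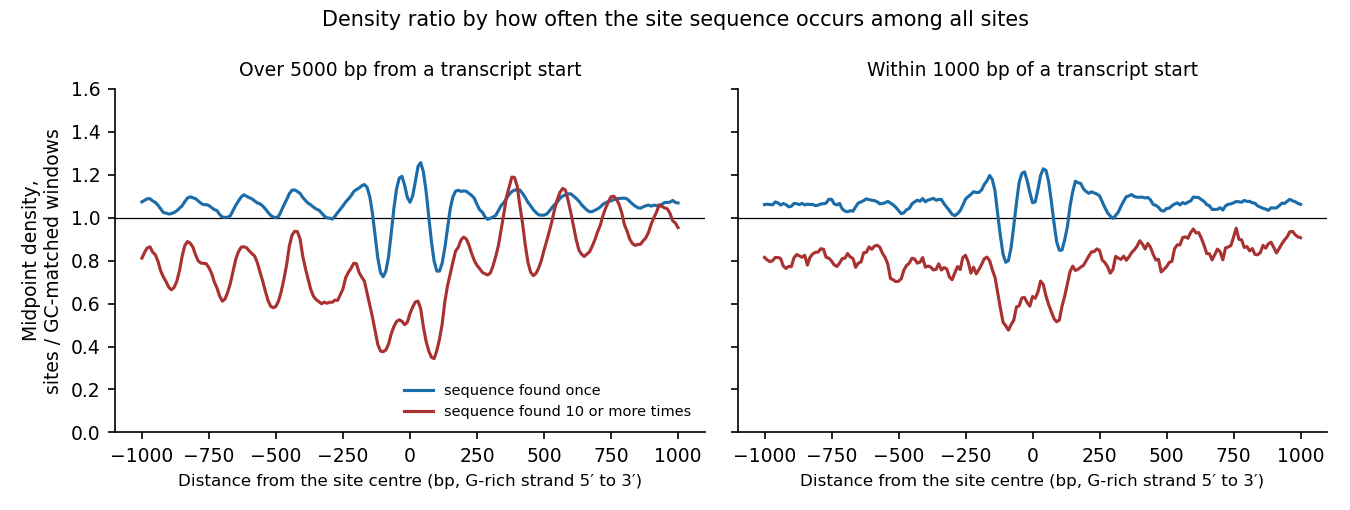
The ratio of midpoint density at sites to that in GC-matched windows (y) is plotted against distance from the site centre (x), for sites whose sequence was found once among all sites and for those whose sequence was found 10 or more times. At the centre of far sites (left) the ratio was 1.07 for the former and 0.554 for the latter, and the latter stays below 1 within 250 bp.

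The 5 most frequent sequences, shown above, accounted for 13143 sites, 10294 of them far, with unlike values. Sequence 1 was almost empty of called positions. Around 4996 compared far copies the list had 17 midpoints within 50 bp of the centre, where the weighted windows gave 2947, so that 0.0337 midpoints per kb stood against 5.84. Its centre lay inside a position in 1.04% of copies and in 76.0% of windows. Sequence 4 had 2 midpoints around 817 far copies where windows gave 486, and 0.979% of its centres lay inside a position. The density rose farther away but stayed below that of windows. Between 1000 and 1500 bp away the density was 3.67 per kb around sequence 1 and 3.12 around sequence 4, against 4.50 in both sets of windows. Copies with a unique central 100 bases, 57.5% of far copies of sequence 1, had 0.0551 midpoints per kb against 5.91. Unique means without an exact copy, and whether reads could be placed at these copies was not tested.

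Sequences 3 and 5, plain repeats of 3 guanines and an adenine, were depleted to a lesser degree. Around far copies of sequence 3 there were 3.69 midpoints per kb within 50 bp against 5.33 in windows, a log2 ratio of -0.53 (SD 0.25), below 0 on all 22 autosomes. Around sequence 5 there were 3.71 against 5.42, a log2 ratio of -0.55 (SD 0.42), below 0 on 21 of 22. The central 100 bases were unique for 99.3% of the far copies of sequence 3 and 99.4% of those of sequence 5, and the density 1000 to 1500 bp away, 4.80 and 4.84 per kb, was close to that of windows (4.68 and 4.67). Sequence 2 could hardly be compared, because windows of like GC content existed for 292 of its 2336 far copies. Over all its far copies the list had 187 midpoints within 50 bp, or 0.793 per kb, and 3.33 per kb from 1000 to 1500 bp away.

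Loop length, which bears on the stability of a quadruplex in vitro, was read from the shortest reading of each site and classed by the longest of its 3 loops. Over all far sites, the central log2 ratio was lowest for the shortest loops. It was -0.73 (SD 0.23) for sites whose loops were all 1 base, -0.080 (SD 0.12) for a longest loop of 2, 0.13 (SD 0.065) for 3, and between 0.14 and 0.20 for 4 to 7 bases. Far sites with all loops of 1 to 3 bases, 31.3% of far sites, had a log2 ratio 0.36 lower than the others. The values were -0.18 against 0.18 (SD of the difference 0.13), lower on all 22 autosomes. Against windows matched on the guanine tract the difference at far sites was -0.30 (SD 0.12), below 0 on all 22 autosomes. At near sites it was -0.031 (SD 0.11), below 0 on 13. Of the 20864 far sites with loops of 1 base, 5001 were copies of sequence 1.

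The difference was much smaller among sites whose sequence was found once. There the log2 ratio was 0.23 for short loops and 0.26 for longer ones, a difference of -0.033 (SD 0.041) that was negative on 17 of 22 autosomes. Sites with loops of 1 base still stood apart, with 5.55 midpoints per kb against 5.44 in windows, a log2 ratio of 0.030 (SD 0.12), while those with a longest loop of 2 to 7 bases lay between 0.24 and 0.30. Near transcript starts the difference between short and longer loops was -0.042 (SD 0.094) over all sites and -0.014 (SD 0.10) among sequences found once, both within their spread. Near sites with loops of 1 base had -0.046 (SD 0.18).

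**Figure D5:**
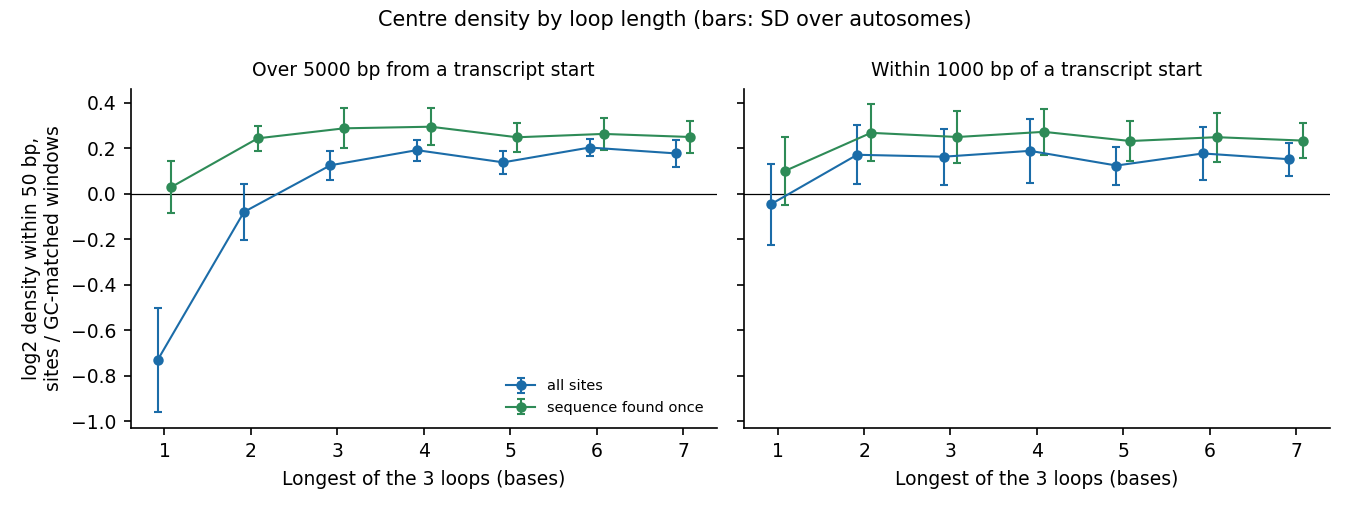
The log2 ratio of midpoint density within 50 bp of sites to that in GC-matched windows (y) is plotted by the longest of the 3 loops in bases (x), for all sites and for sites whose sequence was found once, with bars of 1 SD over autosomes. At far sites (left) all sites with loops of 1 base lie at -0.73, and those with a sequence found once at 0.030.

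The troughs beside the sites, given here without a spread, were deeper where loops were shorter. The windows used here were matched on GC content and not on the guanine tract. Troughs by loop or run length were not tested against tract-matched windows. From 80 to 120 bp the log2 ratio at far sites was -1.36 for loops of 1 base, -0.92 for a longest loop of 2, and -0.44 for 7. Among far sites with a sequence found once the corresponding values were -1.24, -0.70 and -0.36. Longer guanine runs went with deeper troughs as well. Far sites with a sequence found once and a shortest run of 3 had -0.43 there, those with a shortest run of 4 had -1.13, and the 539 compared sites with runs of 5 or more had -1.75. The central ratio of these last sites was -0.32, with too few sites on most autosomes for a spread. For a shortest run of 4 it was 0.18 (SD 0.067) and for 3 it was 0.26 (SD 0.062).

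Crowded sites had low values. Far sites with no other site within 200 bp had a central log2 ratio of 0.14 (SD 0.046), those with 1 other 0.051 (SD 0.12), those with 2 others -0.33 (SD 0.19) and those with 3 or more -1.60 (SD 0.43). The last group had 1.58 midpoints per kb against 4.80, and 21.9% of its centres lay inside a position against 62.9% in windows. Near sites with 3 or more others had -0.54 (SD 0.27), below 0 on all 20 autosomes with enough sites. Sites in such clusters share much of their flanks, so their values are not independent.

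The surroundings of a site went with its values. In far sequence with a GC content from 35% to 40% over 2000 bp, sites had a central ratio of -0.024 (SD 0.087) and a score 0.946 below that of windows (SD 0.267). From 55% to 60% the ratio was 0.13 (SD 0.040) and the score 1.51 above that of windows (SD 0.470). In near sequence the ratio was 0.11 (SD 0.093) from 50% to 55% and 0.19 (SD 0.13) from 60% to 65%.

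Around transcript starts, sites and windows were also set against each other in the same 200-bp interval from the start. The ratio varied between 0.12 and 0.22 over the 10 intervals from 1000 bp upstream to 1000 bp downstream. The SDs ran from 0.097 to 0.31, and no interval stood out beyond them. Bins were over all autosomes here. The SDs around starts, also those by strand, therefore hold some mismatch between an autosome's sites and its own windows. In the 200 bp upstream of the start, where called positions are fewer, 18265 sites had 5.43 midpoints per kb and windows 4.68, and 69.4% of site centres lay inside a position against 62.4%. In the first 200 bp downstream 13533 sites had 5.94 against 5.23. The strands overlapped within their spread. Upstream of the start the ratio was 0.19 (SD 0.24) with the guanines on the coding strand and 0.18 (SD 0.21) on the template strand, and downstream it was 0.16 (SD 0.12) and 0.16 (SD 0.11).

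Single promoters were read from 2 gene lists. The first holds 13 genes whose promoters are textbook cases of G-quadruplex sequences. All 13 had a site within 1000 bp of the canonical start, which their choice made likely and which is not a result. Over all protein-coding genes the share was 68.9%. In 10 of the 13 the centre of the site nearest to the start lay inside a called position, near the share of 73.0% over all compared near sites. The second holds 5 genes that the study names or that mark its cells. Of these, 3 had such a site, near the share over all genes. Neither NANOG, a pluripotency transcription factor, nor EEF2, the translation elongation factor whose locus carries the reporter, had any. These lists are counts of sites, and the site nearest to the start need not be the sequence folded in earlier work. Across the 16 genes with a site, the midpoints that flanked the site centre were separated by 100 to 420 bp (median 230 bp). The sites of 5 genes are shown, 4 with their centre inside a position and 1 with it between positions, with capitals used as before. That of KIT, a receptor tyrosine kinase, is at chr4:54657885-54657906 on the plus strand. That of HIF1A, a transcription factor of the response to low oxygen, is at chr14:61695440-61695464 on the minus strand, and that of MYB, a transcription factor of blood progenitors, at chr6:135181062-135181089 on the minus strand. Those of POU5F1, a core pluripotency factor, and LIN28A, an RNA-binding protein of stem cells, are at chr6:31170685-31170711 on the minus strand and chr1:26410682-26410700 on the plus strand.
KIT: GGGaGGGcgctGGGaggaGGGG
HIF1A: GGGcgcgcGGGGaGGGGagaGGGGG
MYB: GGGcaGGGagcccGGGGccaGGGaGGGG
POU5F1: GGGtGGGactGGGGaGGGagagaGGGG
LIN28A: GGGaGGGGaGGGGaGGGGG

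In the promoter of KIT the site centre lay at -61 bp from the start and 56 bp from the midpoint of a position with a score of 9.87, and 23.1% of positions on its chromosome scored lower. At HIF1A the site lay at -61 bp, 50 bp from a position that scored 7.40, with 3.80% lower. At MYB, with the site at -232 bp, a midpoint lay 11 bp from the site centre, but its score of 2.47 exceeded that of 0.00527% of positions on the chromosome. These sites were covered by positions of low score. At LIN28A, by contrast, the position 19 bp from the site scored 17.3, with 57.8% lower, and the next one downstream scored 38.2, with 98.6% lower.

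At 3 other promoters the site centre lay between positions. In POU5F1 its centre was at -16 bp from the start, with midpoints 154 and 136 bp away that scored 23.4 and 24.7. In TERT, the catalytic subunit of telomerase, it was at -35 bp, with midpoints 79 and 141 bp away that scored 9.87 and 19.7. In PDGFA, a growth factor, it was at -68 bp, with midpoints 218 and 152 bp away. At SOX2, MYC and HRAS the site centre lay inside a position. At SOX2, a pluripotency factor, the site lay 331 bp downstream in the 5′ untranslated region, 14 bp from a midpoint that scored 25.9. At MYC and HRAS, a transcription factor and a small GTPase, the sites lay 150 and 33 bp downstream of the start, 51 and 61 bp from positions that scored 38.2 and 41.9, with 99.2% and 99.3% of positions lower. Each of these is a single reading from the pooled map, with no error.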

How the data were processed

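The authors processed paired-end MNase-seq reads with the nucMACC workflow on GRCh38, with an ENCODE hg38 blacklist, and their processing notes name Trimmomatic 0.40. They deposited a single list of 12921589 nucleosome positions, pooled over libraries, with a signal per position called the score here. Which runs were pooled, which program called the positions and how the score was scaled are not given in the sources used here.

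Of this list, autosomal positions (12465711) were used without a filter, with the midpoint 70 bp from the start. Interval ends beyond a chromosome's length numbered 0. Sites were found by the longest reading of the pattern, and 52 that overlapped a site on the other strand were left out. Transcript starts came from GENCODE release 44, where the study names release 48. Windows were taken every 97 bp and weighted, with no random draw, in bins of 2 percentage points of GC content over 2000 bp and 5 points over 200 bp, with at least 5 windows per bin on the same autosome. Bins were taken over all autosomes for the match on the guanine tract and around starts. Around starts they were 5 and 10 points with 200 bp of distance. With bins over all autosomes, an SD also holds the mismatch between an autosome's sites and its own windows. A spread needed 50 sites per autosome. The depth behind a position is unknown, so no interval is given. Named genes were those of 2 fixed lists, each with the site nearest to the canonical start, and the 5 most frequent sequences of at most 30 bases. The values of some listed genes are not reported here. Members and lists were chosen with earlier results of these data known. Alternatives changed the positions, the matching, the sites and the widths. Calculations used Python 3.11.15, NumPy 2.4.6, pandas 2.3.3, numba 0.67.0 and matplotlib 3.10.9, and were tested on simulated positions.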

Additional observations from a re-analysis of the deposited data

How the results depend on the processing

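Of 101 values recomputed under alternatives for 12 results, 69 moved by less than 1 SD over autosomes, 26 moved by more and 6 changed sign. No paired analysis was possible because there is 1 pooled map and no replicates, and no replicate could be left out. Leaving out soft-masked repeats was not run, since the reference marks none. The matches on the guanine tract and on the central 50 bp, the sites with a sequence found once and those with unique central bases, 38 of the values, were chosen after seeing the data. The cause of a change was not tested. The central log2 ratio of far and near sites was 0.22 and 0.18 with GC content of 2000 bp only, 0.21 and 0.18 with CpG counts, 0.028 and 0.13 with the central 50 bp, and 0.0017 and 0.076 with the guanine tract. It was 0.024 and 0.077 with runs of at least 4, 0.11 and 0.17 for isolated sites, 0.26 and 0.24 for sequences found once, 0.12 and 0.22 weighted by score, 0.56 and 0.50 with the top 2 percent of scores, -0.063 and 0.0099 within 25 bp, and -0.0042 and 0.11 within 75 bp. The score difference was 2.40 and 2.24 with CpG counts, 0.0558 and -0.0741 with the guanine tract, and 1.21 and 1.32 for sequences found once. The log2 ratio from 100 to 250 bp was 0.0065 and 0.058 with the guanine tract, 0.035 and 0.10 for sequences found once, -0.11 and -0.011 for isolated sites, and -0.16 and 0.047 with only positions scoring the median or more. The strand asymmetry of far sites was 0.0028 for isolated sites and 0.077 with only positions scoring the median or more. For sequences found once the covered share exceeded windows by 10.4 and 10.2 points, and the loop difference of far sites was -0.033. With 1 pooled list from 1 line, depth per position unknown and midpoints on a 10-bp grid, differences within their spread are not shown to be differences.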
